A study of Mus musculus with 8 samples.

Results

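The comparison described here set the GFP+ cells of the mouse cochlea at postnatal day 6 (P6) against the GFP- cells sorted from the same kind of tissue, with 2 libraries of each fraction, chosen by their sample titles, so that 4 of the 8 libraries of the series enter it. All 4 came from one BAC transgenic strain, B6;FVB-Tg(Lfng-EGFP)HM340Gsat/Mmucd, in which regulatory DNA of Lfng, a gene for a glycosyltransferase that modifies Notch receptors, drives enhanced green fluorescent protein, so the controls carried the transgene too. The other 4 libraries are the same 2 fractions at P1 and are used here only for the comparison of ages. Cochleas were freshly dissected, dissociated with papain and sorted by fluorescence, and RNA of pooled cells was sequenced as paired-end 100 base reads.

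The reporter marks Deiters' cells, outer pillar cells and the border and inner phalangeal cells around inner hair cells, and leaves out inner pillar cells, so GFP+ does not stand for every supporting cell. Only the brightest GFP+ cells were collected, dimly fluorescent cells went into neither fraction, and GFP- is a mixture of cells from the rest of the piece of tissue. At P6 the lateral wall, the stria vascularis and Reissner's membrane were only partly cut away, whereas at P1 they were separated from the medial structures. Each library pooled sorted cells from many cochleas. The labels do not say whether the replicates came from separate litters, so the p-values below measure only the spread between these samples. In bulk RNA of this kind, fewer cells of a type and less RNA per cell cannot be told apart.

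The organ of Corti is a strip of sensory epithelium in which hair cells turn sound into electrical signals and supporting cells hold, feed and insulate them. Supporting cells are kept apart from hair cells by Notch signalling: hair cells show a Notch ligand, and their neighbours switch on repressors of the Hes and Hey families that block the hair cell programme. In the first postnatal week, supporting cells grow their microtubule bundles, take on the handling of potassium and metabolites, and lose most of their ability to divide or turn into hair cells.

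The P6 GFP+ libraries held 17769024 and 29868880 counts assigned to genes and the GFP- libraries 61678751 and 67695039, and 18294 of the 36536 genes in the files passed the filter on low counts. A normalized count is a gene's count divided by the effective size of its library and brought to the scale of the geometric mean of the 4 libraries. Values of the 4 libraries are given below in the order GFP+ replicate 1, GFP+ replicate 2, GFP- replicate 1 and GFP- replicate 2, and a positive log2 fold change means a higher level in GFP+ cells. The GFP+ libraries were the less alike pair: 2991 of the genes tested (16.3%) differed by more than 2-fold between them, against 716 (3.91%) between the GFP- libraries, where the normalized counts were compared. The reporter's own gene went with the labels, since Lfng had 146665, 89762, 1786 and 1095 normalized counts (log2 fold change 6.36 ± 0.47 SE, adjusted p = 0.00109). The fluorescent protein itself was not looked for.

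The sequences below are shown as examples, from Notch pathway genes that were higher in GFP+ cells and from a bone gene that was higher in GFP- cells. They are RefSeq promoter windows, from 250 bases before to 50 bases after a gene's start, of build GRCm38.p6, whose coordinates differ from those of the gene positions given later. In the first and second, capitals mark the letters TGGGAA or their reverse complement TTCCCA, the core of the sites bound by RBPJ, the DNA-binding partner of Notch. In the third, capitals mark TGTGGT or its reverse complement ACCACA, the core bound by RUNX factors. The window of Hes5, a repressor switched on by Notch, is chr4:154960673-154960972 on the plus strand, and it held 2 matches.
Hes5: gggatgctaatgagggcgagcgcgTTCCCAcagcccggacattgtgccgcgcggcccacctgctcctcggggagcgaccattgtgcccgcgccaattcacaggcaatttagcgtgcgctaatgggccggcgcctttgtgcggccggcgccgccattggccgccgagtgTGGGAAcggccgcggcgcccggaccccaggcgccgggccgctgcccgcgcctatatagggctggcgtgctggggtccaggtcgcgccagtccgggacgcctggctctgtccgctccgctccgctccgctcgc
The window of Lfng is chr5:140607091-140607390 on the plus strand, and it also held 2 matches.
Lfng: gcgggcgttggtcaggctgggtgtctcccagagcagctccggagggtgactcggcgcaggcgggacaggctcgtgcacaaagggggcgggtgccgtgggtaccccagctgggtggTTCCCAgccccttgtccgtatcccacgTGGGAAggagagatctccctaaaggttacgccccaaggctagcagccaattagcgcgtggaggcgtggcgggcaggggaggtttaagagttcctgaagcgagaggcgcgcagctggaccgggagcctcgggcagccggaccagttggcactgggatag
Dmp1, a gene for a phosphoprotein of bone and dentin matrix, has 2 windows, and the one with a match is chr5:104202367-104202666 on the plus strand.
Dmp1: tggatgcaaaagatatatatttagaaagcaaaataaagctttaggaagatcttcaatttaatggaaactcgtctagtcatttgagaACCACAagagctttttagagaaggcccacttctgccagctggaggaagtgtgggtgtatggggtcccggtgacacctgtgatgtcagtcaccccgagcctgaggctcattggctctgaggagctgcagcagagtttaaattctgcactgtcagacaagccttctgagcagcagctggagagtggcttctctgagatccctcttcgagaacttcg
Searched on both strands, the RBPJ letters occurred in the windows of 5 of the 13 supporting cell genes that had one and of 28.3% of all 27025 genes with a window. The RUNX letters occurred in 5 of 10 bone genes, in 0 of 13 supporting cell genes and in 18.9% of all genes. Matches to these 2 motifs can share at most 1 base. A match describes the letters of the window and does not show that a factor binds there, and the 3 windows were chosen after their matches were seen.

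A gene was called enriched when its p and Benjamini-Hochberg adjusted p were below 0.01 and its level differed by more than 4-fold (edgeR quasi-likelihood test). By this rule 892 genes (4.88% of the genes tested) were enriched in the GFP+ fraction and 567 (3.1%) in the GFP- fraction. At the looser adjusted p below 0.05, with no fold needed, 2843 genes (15.5%) were higher in GFP+ cells and 3279 (17.9%) lower. Both libraries of a fraction exceeded both of the other for 6401 genes (35%) on the GFP+ side and 6968 (38.1%) on the GFP- side, so a lack of overlap alone sets few genes apart. An unadjusted p below 0.05 was reached by 3823 genes (20.9%) that were higher and 4393 (24%) that were lower in GFP+ cells. DESeq2, with the criteria for enriched genes, called 1049 (5.73%) and 1211 (6.62%). Scaled by library totals alone, the enriched genes were 837 and 295, so the split between the directions depended on the scaling.

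The 2 directions differed in how far the genes moved. The median log2 fold change was 3.10 over the GFP+ genes and -2.74 over the GFP- genes, beside -0.02 over all genes tested, and these medians describe genes picked by their fold. Among GFP+ genes 110 differed by more than 32-fold, and among GFP- genes 3 did. The spread between the GFP+ libraries lay in the same place for most of them: 694 of the 892 GFP+ genes were higher in GFP+ replicate 1, and 539 of the 567 GFP- genes were higher in GFP+ replicate 2, the library with more of nearly every non-epithelial marker list described below. The same share over all genes tested was not counted, so how far these counts depart from it is not known. Every GFP+ library exceeded every GFP- library by more than 4-fold for 875 genes (4.78%), of which 759 were also enriched, and the reverse held for 807 genes (4.41%), of which 397 were also enriched.

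How many genes were called rested on single libraries. Without GFP+ replicate 1 the counts were 1016 and 837, including 835 of the 892 and 433 of the 567. Without GFP+ replicate 2 they were 1105 and 2156, including 867 of the 892 and 562 of the 567. Without GFP- replicate 1 they fell to 359 and 7. Without GFP- replicate 2 they were 0 and 0 in edgeR, where the smallest adjusted p was 0.0124 and the genes at an unadjusted p below 0.05 numbered 2327 and 2817. The looser counts moved too, to 1257 and 1102 without GFP- replicate 1, 1075 and 865 without GFP- replicate 2, and 4419 and 5387 without GFP+ replicate 2. With 2 libraries on each side, the test stood on 2 residual degrees of freedom and the GFP- libraries supplied the tighter pair.

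**Figure D1:**
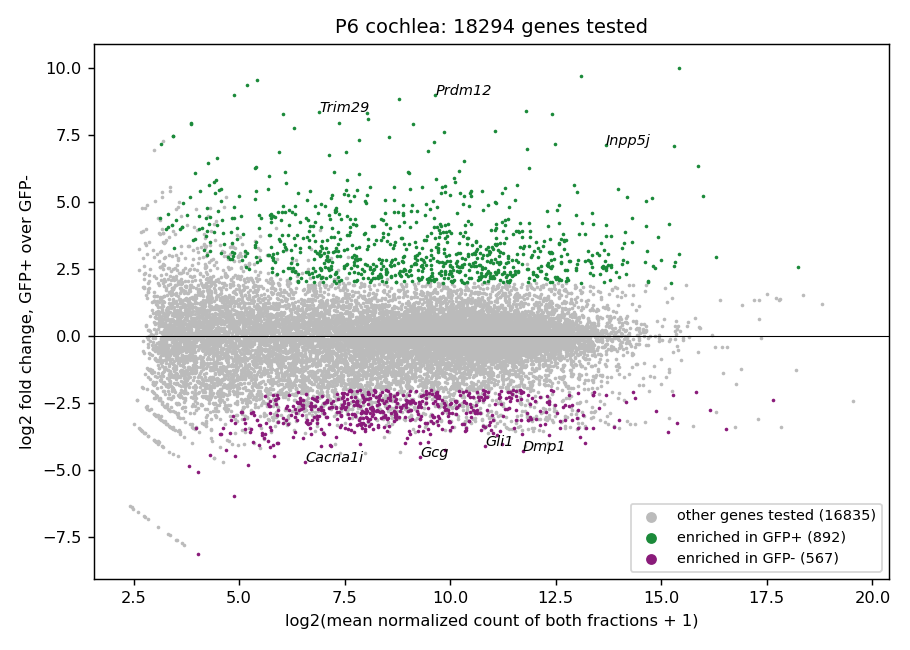
Each point is one of the 18294 genes tested at P6, with the log2 of the mean normalized count of both fractions plus 1 on the x axis and the log2 fold change of GFP+ over GFP- cells on the y axis. Green points are the 892 genes enriched in GFP+ cells, which reach 10.00, purple points the 567 enriched in GFP- cells, most of which lie above -5, and grey points all others.

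Leading genes were enriched, had a mean of 100 or more normalized counts in the higher fraction and had replicates that did not overlap. Genes in the study's tables of top genes and of gene ontology terms at P6 were left out. For some genes named below, as for Hes5, Lfng, Skp1a and Anxa5, the study gives P6 values elsewhere. The leading genes with the largest ratio in GFP+ cells coded for a transcription factor, secreted ligands and a few enzymes. Prdm12, a zinc finger regulator known from pain-sensing neurons (ENSMUSG00000079466, chromosome 2, 31495557 to 31511315, NCBIM37), had 1776, 1414, 4.42 and 1.70 normalized counts, a log2 fold change of 9.002 ± 0.40 (SE, adjusted p = 0.000645). F12, the gene of coagulation factor XII (chromosome 13, 55519319 to 55528154), had 1139, 617, 1.26 and 2.27, a log2 fold change of 8.85 ± 0.54 (adjusted p = 0.000800). Both were close to absent from the GFP- fraction, in which Prdm12 had 10 counts in all and F12 had 6.

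A pair of fibroblast growth factor genes that lie near each other on chromosome 7 stood in the same group. Fgf15, the mouse counterpart of human FGF19 (152082437 to 152086858), had 593, 439.6, 0 and 2.83 normalized counts (log2 fold change 8.34 ± 0.73, adjusted p = 0.00164). Fgf3, a ligand that takes part in inducing the inner ear (152023988 to 152030341), had 1303, 917, 3.79 and 5.10 (log2 fold change 7.92 ± 0.36, adjusted p = 0.000645). In both genes the GFP+ libraries were far above the GFP- libraries and within 1.5-fold of each other.

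Trim29, of the tripartite motif family, had 251 and 219 normalized counts in GFP+ cells and only 2 counts in the GFP- libraries together, a ratio of pooled counts of 385 with a 95% exact counting interval of 106 to 3198. Akr1cl, of the aldo-keto reductase family, had 132 and 128 in GFP+ cells and a single count in GFP- cells, a ratio of 434 with an interval of 76.8 to 17244. These intervals cover counting error only. For both genes the adjusted p, 0.00128 and 0.00138, speaks for the direction, and the size of the ratio is poorly fixed.

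Hes5 had 864, 619, 5.05 and 3.40 normalized counts (log2 fold change 7.43 ± 0.39, adjusted p = 0.000673). Igfbpl1, a relative of the insulin-like growth factor binding proteins, had 2297, 1363, 12.6 and 5.67 (7.64 ± 0.49, adjusted p = 0.000881). Both were higher in GFP+ replicate 1 than in replicate 2. Il22, a cytokine gene with a near-identical copy in the mouse genome that makes its count uncertain, had 600.1, 305, 3.16 and 2.27 (7.33 ± 0.56, adjusted p = 0.00121). Trim50, a ubiquitin ligase gene, had 1921, 1187, 9.48 and 10.8 (7.24 ± 0.37, adjusted p = 0.000670). Inpp5j, which codes for a phosphatase of inositol phosphates and phosphoinositides (chromosome 11, 3394378 to 3404824), was the most abundant of these genes, with 28072, 24149.6, 192 and 180.2 (7.13 ± 0.24, adjusted p = 0.000645).

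**Figure D2:**
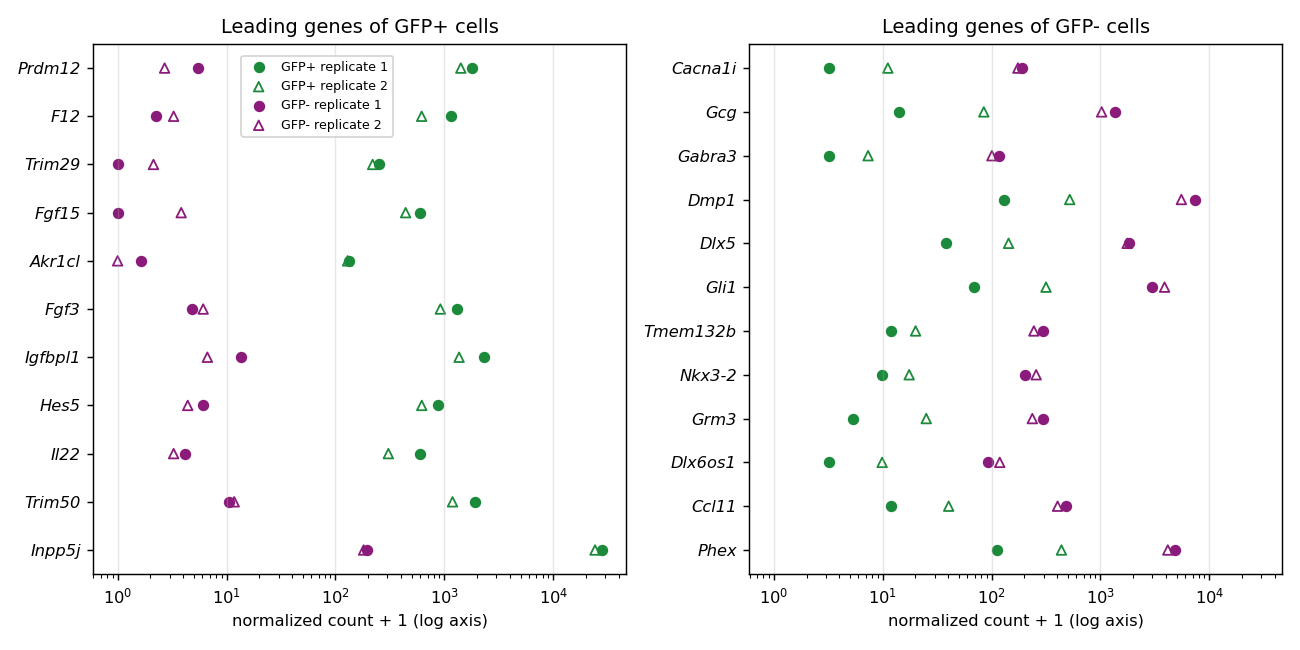
The x axis gives the normalized count plus 1 in each P6 library on a log axis for 11 leading genes of GFP+ cells (left) and 12 of GFP- cells (right), with green for GFP+ and purple for GFP- libraries, filled circles for replicate 1 and open triangles for replicate 2. On the left GFP+ replicate 1 is the higher of the GFP+ pair for all 11 genes, and on the right GFP+ replicate 2 is the higher for all 12.

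Ordered by level per kilobase of exon instead, the enriched genes of GFP+ cells outside those tables were led by S100a1, a calcium-binding protein gene, with a mean of 78876 normalized counts per kilobase in GFP+ cells against 2179 in GFP- cells. Its 4 libraries had 70222, 39258, 1658 and 1366 normalized counts (log2 fold change 5.18 ± 0.39, adjusted p = 0.00116). Skp1a and Fbxo2 code for subunits of SCF ubiquitin ligases, Fbxo2 being the one that binds glycoproteins. They followed with 64820 and 53550 per kilobase in GFP+ cells and had log2 fold changes of 2.96 ± 0.36 and 2.61 ± 0.33. Lfng came next with 51802 per kilobase. Tuba1a, an alpha tubulin whose reads can be shared with near-identical tubulin genes, stood at 37263 per kilobase (2.01 ± 0.27) and Anxa5, a calcium-dependent phospholipid-binding protein gene, at 34192 (2.86 ± 0.28).

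By the same rule, the leading genes of GFP- cells were genes of ion channels, signalling and the skeleton. Cacna1i, a T-type calcium channel gene (ENSMUSG00000022416, chromosome 15, 80117668 to 80228709), had 2.20, 10.2, 190.2 and 173 normalized counts (log2 fold change -4.68 ± 0.54, adjusted p = 0.00355). Gcg, the gene of proglucagon, had 13.2, 83.9, 1367 and 1024 (-4.50 ± 0.66, adjusted p = 0.00672). Gabra3, the alpha 3 subunit gene of the GABA-A receptor, had 2.20, 6.35, 116 and 99.7 (-4.48 ± 0.52, adjusted p = 0.00355). In each of them GFP+ replicate 2 stood above GFP+ replicate 1, by more than 2-fold, while the GFP- libraries lay close together. In GFP+ replicates 1 and 2 Cacna1i had only 1 and 8 counts and Gabra3 1 and 5, so their step rests on few reads. Counts in these libraries were also low for genes named below. Dlx6os1 had 1 and 7, Grm3 2 and 19, Nkx3-2 4 and 13, Tmem132b 5 and 15 and Ccl11 5 and 31.

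Skeletal genes made up much of the rest. Dmp1 (chromosome 5, 104631632 to 104643121, NCBIM37) had 129.7, 521, 7362 and 5529 normalized counts (log2 fold change -4.28 ± 0.64, adjusted p = 0.00708). Phex, an endopeptidase gene of bone cells that bears on phosphate handling, had 112, 437, 4839 and 4151 (-3.997 ± 0.60, adjusted p = 0.00714). Dlx5, a homeobox gene of bone formation, had 37.4, 142, 1825 and 1759 (-4.24 ± 0.54, adjusted p = 0.00471). All 3 were roughly 4-fold higher in GFP+ replicate 2 than in replicate 1 and were still more than 9-fold below the GFP- libraries there. Nkx3-2, a homeobox gene of the axial skeleton and cartilage, had 8.79, 16.5, 203 and 256 (-4.10 ± 0.42, adjusted p = 0.00249). Dlx6os1, an antisense RNA at the Dlx5 and Dlx6 genes, had 2.20, 8.89, 91.0 and 118 (-4.04 ± 0.56), and since the kit does not mark strand its reads cannot be told apart from those of a partner on the other strand.

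Gli1, a transcription factor and target of hedgehog signalling, had 68.1, 315, 2967 and 3875 normalized counts (log2 fold change -4.11 ± 0.65, adjusted p = 0.00824). Ccl11, the chemokine eotaxin, had 10.99, 39.4, 478 and 403 (-4.02 ± 0.52, adjusted p = 0.00490). Grm3, a metabotropic glutamate receptor gene, had 4.40, 24.1, 298 and 236 (-4.06 ± 0.60, adjusted p = 0.00675), and Tmem132b had 10.99, 19.1, 297 and 244 (-4.10 ± 0.39, adjusted p = 0.00210). That the replicates of the fractions did not overlap was a condition for naming these genes. By level per kilobase, the named genes that were enriched in GFP- cells were led by Col9a1, a collagen of cartilage and tectorial membrane, at 67356 against 12882 in GFP+ cells. Next stood the growth factor gene Ptn at 32833, the imprinted RNA H19 at 32132, Igfbp4 at 22339, the fibrillar collagen gene Col3a1 at 20525 and Apoe, an apolipoprotein, at 17712, with log2 fold changes between -3.45 and -2.29.

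Of the 19 supporting cell genes listed, 14 were enriched in GFP+ cells and 1 more, Sox10, passed the looser threshold only, with a median log2 fold change of 3.27 over the list. The receptor Fgfr3 had 57423, 42311, 1433 and 1580.1 normalized counts (5.05 ± 0.28) and the Notch ligand Jag1 51719, 44499, 3072 and 2486 (4.11 ± 0.25). Of the Notch-driven repressors, Hes5 stood at 7.43, Heyl at 3.81, Hey2 at 3.36 and Hey1 at 2.12, all enriched. The transcription factors Prox1 (5.03), Sox21 (3.45) and Sox2 (3.08), the receptor genes Lgr5 (3.27) and Ngfr (2.77) and the cell cycle inhibitor Cdkn1b (2.48) were enriched too. Sox9, Slc1a3, S100b and Aqp4 did not pass even the looser threshold and lay between -0.13 and 0.75. At P1 the log2 fold changes were 5.10 for Aqp4, 1.70 for S100b, 0.87 for Sox9 and -1.03 for Slc1a3. In the age comparison described below, the ratio was lower at P6 for Aqp4 (-4.38, adjusted p = 0.00254) and S100b (-1.84, adjusted p = 0.00867). It was higher for Slc1a3 (1.23, adjusted p = 0.00987), and Sox9 did not pass. The cause was not tested.

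The genes of the greater epithelial ridge and the tectorial membrane did not move as one. Of 13 tested, 7 were enriched in GFP+ cells and 2 went the other way. The tectorial membrane genes Tectb (593495, 465628, 100320 and 75253 normalized counts, 2.59 ± 0.38), Otog (5.24 ± 0.34) and Ceacam16 (2.68) were higher in GFP+ cells, as were Otol1 (3.94), an otolith matrix gene, and Umodl1 (10.00 ± 0.48), the top gene of all enriched genes. Tecta, which codes for the other tectorin, had 44759.5, 64291, 19331 and 11911 (1.80 ± 0.34, adjusted p = 0.0130) and was not enriched. In the other direction went Col9a1 and Crym, which codes for a thyroid hormone binding protein and had 1039.7, 2248, 19228 and 15746 (-3.41 ± 0.41, adjusted p = 0.00392). Epyc and Emilin2 were lower in GFP+ cells at the looser threshold, at -1.16 and -1.56.

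Genes for the handling of ions and metabolites split in the same way. Of 16, 8 were enriched in GFP+ cells and 1 went the other way, or 3 without GFP+ replicate 2. Ano1, a chloride channel that calcium opens, had 57128, 58427, 4556 and 4392 normalized counts (3.69 ± 0.22), and the gap junction genes Gjb2 and Gjb6 stood at 2.07 and 2.47. The potassium channels Kcnj16 (4.597) and Kcnj10 (2.29), the potassium chloride cotransporter Slc12a7 (2.58 ± 0.19), the amino acid transporter Slc6a14 (5.53) and the ATP-gated channel P2rx2 (4.72) were enriched as well. Against them, the lactate carrier Slc16a1 had 193, 432, 3469 and 2949.9 (-3.34 ± 0.39, adjusted p = 0.00363) and was enriched in GFP- cells. Slc12a2, a sodium potassium chloride cotransporter, was lower in GFP+ cells at the looser threshold (7060.2, 14244, 42734 and 32309, -1.82 ± 0.38).

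Genes of epithelial identity moved together: 24 of 25 junction and keratin genes were higher in GFP+ cells at the looser threshold, 18 of them enriched, and Krt19 alone (-0.30) was not. Epcam had 40014, 27199, 2606 and 1950.2 normalized counts (3.88 ± 0.31), the claudin Cldn9 31406, 19069.9, 1617 and 1187 (4.17 ± 0.35), and Ildr1, of tricellular junctions, 10461, 8772, 398 and 353 (4.68 ± 0.20). Krt8 and Krt18, which pair in simple epithelia, stood at 3.95 and 3.21. The classical cadherin Cdh1 had 18204, 19215, 9379.6 and 7173 (1.18 ± 0.21, adjusted p = 0.0116), the smallest step among the 5 most abundant genes of the list.

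Hair cell genes were measured as the main other sensory cell type of the tissue. Of 21, 15 were enriched in GFP+ cells and 4 more were higher at the looser threshold, with a median of 4.08. Atoh1, the factor that starts the hair cell programme, stood at 6.48 ± 0.79. It had only 33.0, 39.4, 0.632 and 0 normalized counts, so the size of its ratio is poorly fixed. Pou4f3 and Gfi1, which act after Atoh1, stood at 4.36 and 4.08. Ocm, a calcium buffer of outer hair cells, had 3365, 1304, 69.5 and 43.6 normalized counts (5.36 ± 0.56, adjusted p = 0.00271), and the outer hair cell genes Slc26a5, Strc, Chrna9 and Chrna10 lay between 4.196 and 4.64. Myo6, by contrast, had 9770.5, 12337, 12142 and 13029.9 (-0.19 ± 0.20, adjusted p = 0.511), with overlapping fractions, and Slc17a8, the glutamate loader of inner hair cells, stood at 0.20. In CPM, counts scaled to a common library size, the summed level of the list was 753, 788, 387 and 421, and that of the supporting cell list 12017, 8758, 1263 and 1151. Myo6 held most of the hair cell sum in the GFP- libraries, so the sums show a smaller step than the list's median. The sort took only the brightest GFP+ cells, and the part of hair cell RNA in the ratios of other genes was not tested.

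**Figure D3:**
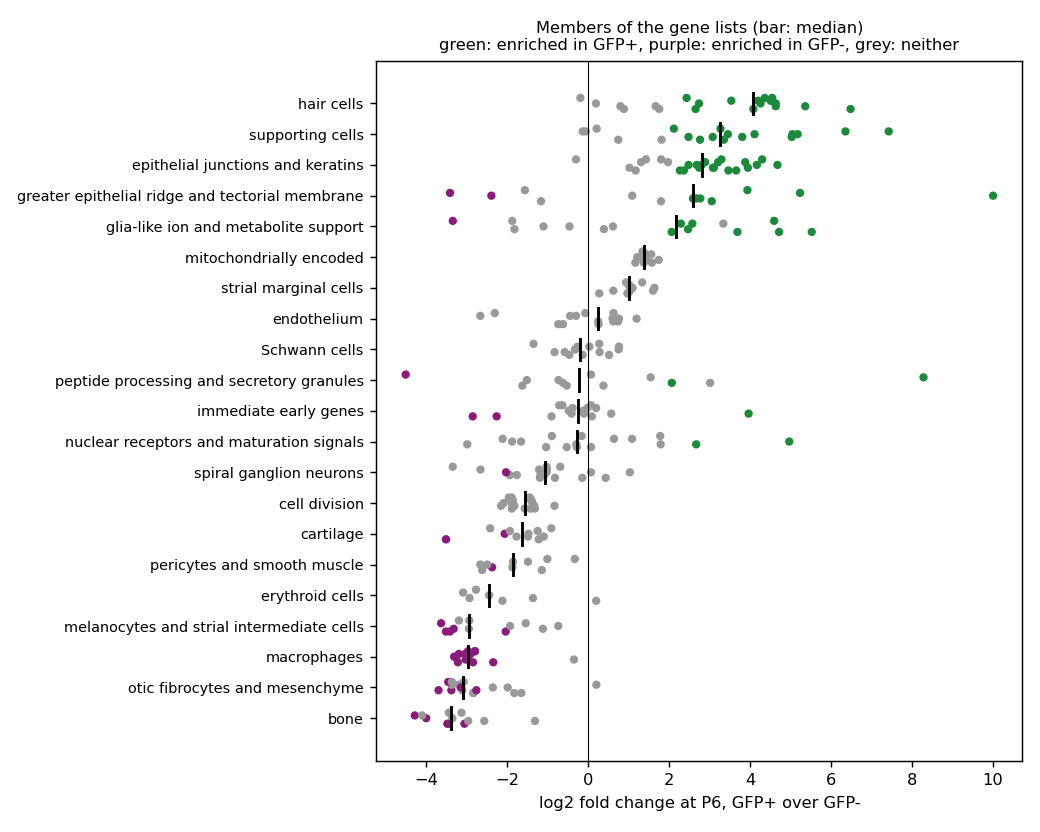
Each point is a tested member of one of the 21 gene lists, placed by its log2 fold change at P6 on the x axis, green where enriched in GFP+ cells, purple where enriched in GFP- cells and grey otherwise, with a black bar at the list's median. The hair cell, supporting cell and epithelial lists have the highest medians (4.08, 3.27 and 2.81) and the bone, mesenchyme and macrophage lists among the lowest (-3.39, -3.09 and -2.96).

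On the side of GFP- cells, macrophage genes were the most uniform: 14 of 15 were enriched there, in this fit and without either GFP+ library, and Cd68 (-0.35) was not. Mrc1, a mannose receptor, had 490.2, 1324, 9551 and 7917 normalized counts (log2 fold change -3.26 ± 0.48), Csf1r, the receptor of colony stimulating factor 1, 506, 1117, 8839 and 7304 (-3.31 ± 0.40), and the complement gene C1qa 233, 389, 2672 and 2423 (-3.02 ± 0.28). No member was at 0 in both GFP+ libraries. The list summed to 79.5 and 155 CPM in GFP+ replicates 1 and 2, against 938 and 804 in the GFP- libraries.

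Connective tissue and skeleton followed, with wider error. Of 18 genes of otic fibrocytes and mesenchyme, 17 were lower in GFP+ cells at the looser threshold and 6 were enriched in GFP- cells, and Lum (0.21) was the exception. Col1a2, of type I collagen, had 18387, 64759, 432403 and 424760 normalized counts (-3.37 ± 0.66, adjusted p = 0.0147) and so missed the stricter threshold at a 10-fold difference. Of 12 bone genes, 11 passed the looser threshold and 5 the stricter one. Runx2, the factor that starts bone formation, had 112, 639, 6188 and 6930.1 (-4.10 ± 0.75, adjusted p = 0.0123), and Alpl, an alkaline phosphatase, 207, 764, 5449.9 and 5202 (-3.44 ± 0.58, adjusted p = 0.00988).

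The calls in these lists moved with the choice of GFP+ library. Without GFP+ replicate 2, 15 fibrocyte genes and all 12 bone genes were enriched in GFP- cells, and without GFP+ replicate 1, 13 and 10. Of 12 cartilage genes, 8 were lower in GFP+ cells at the looser threshold and 2 enriched in GFP- cells, Snorc (-3.50) and Col11a1 (-2.06 ± 0.34), and without GFP+ replicate 1 or 2 there were 3 and 5. Col2a1, the main collagen of cartilage, was abundant in both fractions, with 181858, 297766, 1338020 and 1220970 (-2.42 ± 0.47).

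Pigment cell genes were also on the GFP- side. Of 12, 10 passed the looser threshold and 5 were enriched, and without GFP+ replicate 1 or 2 there were 7 and 8. Dct and Tyr, enzymes of melanin synthesis, had 908, 2769.8, 17145 and 21958 and 96.7, 321, 2226 and 2659 normalized counts, with log2 fold changes of -3.41 ± 0.55 and -3.51 ± 0.53. Of 10 pericyte and smooth muscle genes, 7 passed the looser threshold and Acta2, smooth muscle actin, was enriched (-2.37), and without GFP+ replicate 2 there were 8. Pdgfrb, the receptor that pericytes need, had 1477, 3655, 13825 and 14949 (-2.48 ± 0.44, adjusted p = 0.0108). Of 7 erythroid genes 4 passed the looser threshold, 5 had an unadjusted p below 0.05 and 0 were enriched in edgeR against 3 in DESeq2, and the globin counts are uncertain because the paired globin genes are near-identical. Without GFP+ replicate 1 or 2, 3 and 5 erythroid genes were enriched in GFP- cells.

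In neurons, glia and vessels fewer of the listed genes were called. Of 18 neuronal genes, 6 were lower in GFP+ cells at the looser threshold, Gap43 (-2.02) being the one enriched in GFP- cells, and Tubb3 was higher (1374, 1069, 708 and 483 normalized counts, 1.03 ± 0.25, adjusted p = 0.0281). At an unadjusted p below 0.05 in edgeR, 12 were lower and 1 higher, beside 24% and 20.9% of all genes. DESeq2 enriched 3 in GFP- cells, and the list's median log2 fold change was -1.05. The neurotrophin receptors Ntrk2 (323, 1126, 4985 and 4232) and Ntrk3 (92.3, 558, 3294 and 3459) had log2 fold changes of -2.66 and -3.34. Without GFP+ replicate 2, 6 neuronal genes were enriched in GFP- cells. Of 14 Schwann cell genes 0 were enriched in either direction, here and without either GFP+ library, while 2 were higher and 1 lower at the looser threshold, 2 and 2 had an unadjusted p below 0.05, and DESeq2 enriched 0 (edgeR otherwise). Over all genes, 15.5% were higher and 17.9% lower at the looser threshold, and 20.9% and 24% at that unadjusted p. The Schwann cell counts at these thresholds therefore do not set the list apart. The myelin gene Mbp had 7627, 16677, 10550.3 and 13187 (0.03 ± 0.38, adjusted p = 0.955), so GFP+ replicate 2 lay above both GFP- libraries and GFP+ replicate 1 below them.

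Endothelial genes showed the same spread. Of 15, 0 were enriched and 2 were lower in GFP+ cells at the looser threshold, Emcn (565, 1989.7, 8037 and 8184 normalized counts, -2.66 ± 0.57) and Eng (912, 2597, 8501 and 8862, -2.30 ± 0.48), both surface glycoproteins of endothelium. At an unadjusted p below 0.05 in edgeR, 2 were higher and 2 lower, and DESeq2 enriched 2 in GFP- cells, as edgeR did 3 without GFP+ replicate 2. Over all genes, 20.9% were higher and 24% lower at that unadjusted p, and 17.9% were lower at the looser threshold. The endothelial counts at these 2 thresholds therefore do not set the list apart. Cdh5, the cadherin of vessel walls, had 453, 1989.7, 1115 and 936 (0.26 ± 0.62, adjusted p = 0.777). All 15 were higher in GFP+ replicate 2 than in replicate 1, by a median of 1.62 on the log2 scale.

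The strial marginal cell genes had the widest gap between the GFP+ libraries. Kcne1, the accessory subunit of the potassium channel that fills the endolymph with potassium, had 41.8, 858, 198 and 227 normalized counts, and its pore subunit Kcnq1 had 211, 682, 222 and 226. Thus the GFP- libraries lay between the GFP+ libraries for Kcne1, and the log2 fold change of 1.10 ± 1.08 (adjusted p = 0.476) describes neither GFP+ library. Of 12 genes 11 were higher in GFP+ replicate 2, by a median of 2.37 on the log2 scale, and 0 were enriched in edgeR or in DESeq2, with 3 higher at an unadjusted p below 0.05, a share near the 20.9% of all genes. Atp1b2, a sodium pump subunit, was one of 2 that passed the looser threshold (11964, 14637, 4462 and 4268, 1.61 ± 0.19). Without GFP+ replicate 1, 2 of the list were enriched in GFP+ cells, and without GFP+ replicate 2, 2 were enriched in GFP- cells.

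Across lists, GFP+ replicate 2 had the higher level for 12 of 12 pigment cell and 12 of 12 bone genes, 17 of 18 fibrocyte genes, 15 of 15 macrophage genes, 10 of 10 pericyte genes, 17 of 18 neuronal genes and 12 of 14 Schwann cell genes. It had the higher level for 4 of 19 supporting cell and 4 of 25 epithelial genes. No such share was counted over all genes tested. In summed CPM the GFP+ libraries had 76.1 and 298 for bone, 2384 and 5370 for fibrocytes and mesenchyme, and 1300 and 2819 for Schwann cells. The GFP- libraries had 1990 and 2019, 30976 and 27582, and 1932 and 2194 for the same lists. The part of this spread in the width of the errors of genes enriched in GFP- cells, whose median SE was 0.39 on the log2 scale against 0.29 for GFP+ genes, was not tested.

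**Figure D4:**
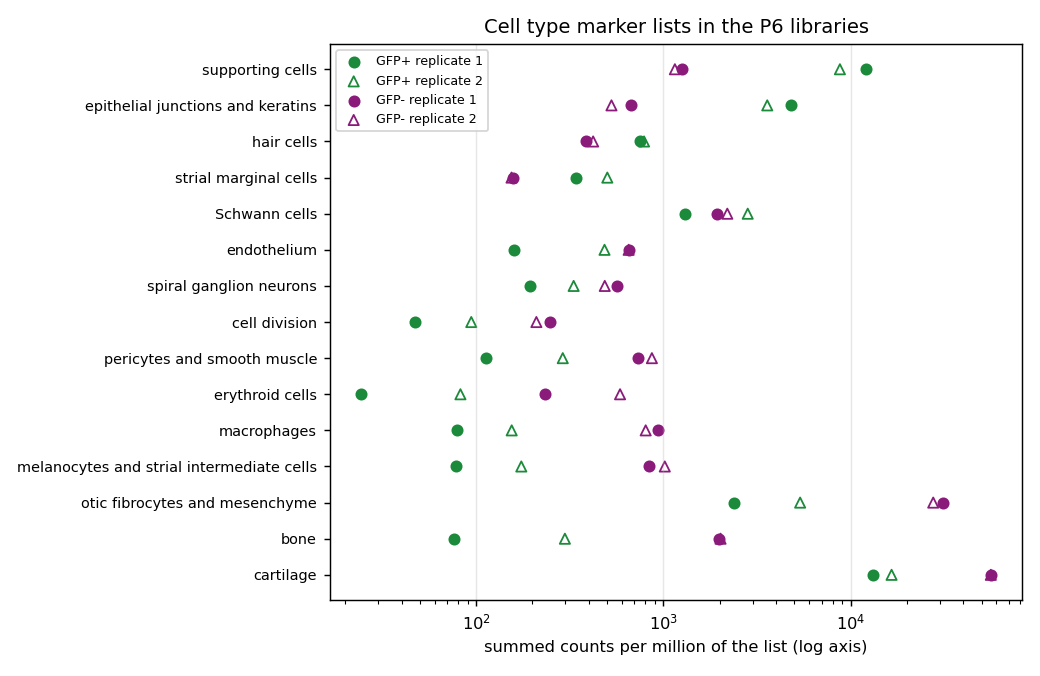
The x axis gives the summed CPM of 15 marker lists on a log axis in each P6 library, with green for GFP+ and purple for GFP- libraries, filled circles for replicate 1 and open triangles for replicate 2. GFP+ replicate 2 lies to the right of replicate 1 for every list but the supporting cell and epithelial ones, as with 298 against 76.1 for bone.

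Genes of cell division were lower in GFP+ cells. Of 17, 12 passed the looser threshold, 16 had an unadjusted p below 0.05 and 0 were enriched in edgeR or DESeq2, with a median log2 fold change of -1.56, and without GFP+ replicate 2, 9 were enriched in GFP- cells. Top2a, the topoisomerase of dividing cells, had 275, 475, 1588 and 1205 normalized counts (-1.89 ± 0.31, adjusted p = 0.00908), and Mcm6, of the replicative helicase, 385, 469, 1124 and 999.7 (-1.31 ± 0.20, adjusted p = 0.00703). Mki67, a mark of cycling cells, had 68.1, 704, 1893 and 1609.5 and did not pass (adjusted p = 0.115), with a gap of more than 10-fold between the GFP+ libraries.

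Transcripts that can bear the mark of tissue handling were examined as well. Of 18 immediate early genes, 15 passed neither threshold. Fos had 90161, 76139, 117264 and 102991 normalized counts (-0.41 ± 0.27, adjusted p = 0.289) and Egr1 78449.5, 74456, 108715 and 90483. The orphan nuclear receptor Nr4a3 was enriched in GFP+ cells (4201, 3868, 383 and 134, 3.97 ± 0.51, adjusted p = 0.00478), and its relative Nr4a2 (-2.26) and Ier3 (-2.85) in GFP- cells, of which 1 was left without GFP+ replicate 1. Of 12 genes encoded in the mitochondrial genome, 11 were higher in GFP+ cells at the looser threshold, 12 had an unadjusted p below 0.05 and 0 were enriched in edgeR or DESeq2, with a median of 1.37. All 12 were higher in GFP+ replicate 1 than in replicate 2, and their sum was 84434, 57647, 25620.4 and 30143 CPM. Their part in other results was not tested.

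The age comparison asked whether the ratio of GFP+ to GFP- cells differed between P6 and P1, with all 8 libraries in one fit. At an adjusted p below 0.05, the ratio was higher at P6 for 692 of 19233 genes (3.6%) and lower for 536 (2.79%). Since the lateral wall was removed at P1 and only in part at P6, age and dissection cannot be told apart. These counts also rested on single libraries: they were 157 to 175 and 169 to 209 without P1 GFP+ replicate 1 or 2 or P6 GFP- replicate 1 or 2, and 1848 and 832 without P6 GFP+ replicate 1 and 1265 and 1726 without P6 GFP+ replicate 2. Without P1 GFP- replicate 1 or 2 they were 631 and 311 and 408 and 340. Genes were named from those that also passed the P6 criteria. CPM values of P1 are given in the same order of libraries. They are on another scale than the normalized counts of P6, so only the ratios, and not the levels, can be compared across the ages.

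Vtn codes for vitronectin, a plasma and matrix protein. Its level at P1 was lower in GFP+ than in GFP- cells (2.08, 2.17, 42.0 and 36.5 CPM, log2 fold change -4.21). At P6 its level was higher in GFP+ cells (1729.9, 1175, 348 and 375 normalized counts, 2.00 ± 0.24). The difference between the ages was 6.20 on the log2 scale (adjusted p = 0.000193). Ighm, the constant region of the immunoglobulin mu heavy chain, turned in the same way, from -3.76 at P1 (0.531, 0.245, 5.60 and 5.66 CPM) to 2.17 ± 0.24 at P6 (4038, 2640.2, 718 and 763 normalized counts), a difference of 5.91 (adjusted p = 0.000469). For these genes the fraction with the higher level changed between the ages. The replicates of the fractions did not overlap at either age. At P6 this held for 35% of all genes on the GFP+ side and 38.1% on the GFP- side, and the P1 share was not counted. The genes were chosen by tests that favour such a gap, so it adds no support. Rasal1, a Ras GTPase activating protein gene, went from -1.09 at P1 (7, 6, 16 and 28 counts) to 6.12 ± 0.40 at P6 (343, 257, 3.79 and 4.53 normalized counts), a difference of 7.21 (adjusted p = 0.000731).

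Psapl1, a relative of prosaposin, and Slc47a2, a transporter of organic cations, were nearly unread at P1, with 5, 2, 6 and 14 counts and 1, 0, 4 and 13 counts. At P6 Psapl1 had 347, 219, 7.58 and 6.80 normalized counts (5.27 ± 0.42) and Slc47a2 257, 126, 21.5 and 29.5 (2.89 ± 0.47). The age differences of 6.12 and 6.07 (adjusted p = 0.00288 and 0.0200) therefore rest on few P1 counts. Trim29 had 20, 15, 0 and 10 counts at P1 and a difference of 5.88 (adjusted p = 0.0476). Its difference was 1.08 without P1 GFP- replicate 2, which leaves a P1 GFP- library at 0, and 8.53 without P6 GFP- replicate 2.

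In the other direction, genes that were higher in GFP+ than in GFP- cells at P1 were lower than in GFP- cells at P6. Olfml3, a secreted olfactomedin-like protein gene, had 327, 264, 54.1 and 64.8 CPM at P1 (log2 fold change 2.31) and 631, 797, 2974 and 2831 normalized counts at P6 (-2.02 ± 0.18), a difference of -4.35 (adjusted p = 0.000217). Bmp2, a bone morphogenetic protein ligand, had 16.2, 18.1, 5.06 and 7.07 CPM at P1 (1.49) and 101, 132, 506 and 453 normalized counts at P6 (-2.03 ± 0.27), a difference of -3.53 (adjusted p = 0.00174). Pthlh, a parathyroid hormone-like signal (-3.59), and Rbpjl, a relative of Rbpj (-3.53), turned likewise.

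For Pthlh and Rbpjl the P1 log2 fold changes were 0.77 and 0.90 and those at P6 -2.82 ± 0.32 and -2.63 ± 0.39. Itih3, a heavy chain gene of the inter-alpha trypsin inhibitors, went from 0.62 (adjusted p = 0.0729 at P1) to -2.57 ± 0.40, a difference of -3.21 (adjusted p = 0.00687). Fam159b stayed higher in GFP+ cells and narrowed, from 6.03 at P1 (58.5, 58.8, 0.537 and 1.16 CPM) to 2.70 ± 0.45 at P6 (618, 369.7, 100.5 and 51.0 normalized counts), a difference of -3.37 (adjusted p = 0.0171).

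**Figure D5:**
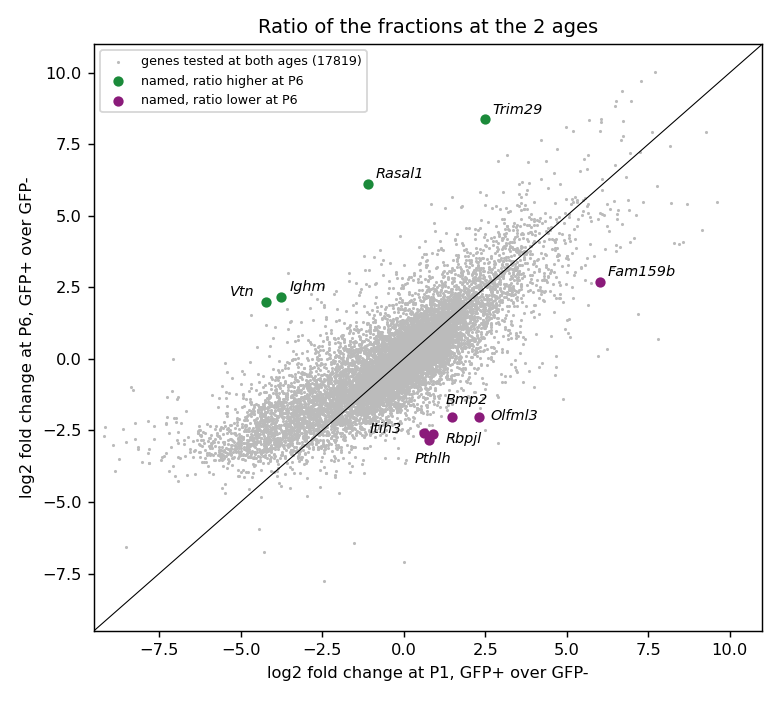
The x axis gives the log2 fold change of GFP+ over GFP- cells at P1 and the y axis that at P6 for the 17819 genes tested at both ages, with a line where both are equal. Green points mark named genes whose ratio was higher at P6, such as Vtn (-4.21 at P1, 2.00 at P6), and purple points named genes whose ratio was lower, such as Olfml3 (2.31 at P1, -2.02 at P6). Psapl1 and Slc47a2 are not drawn because they were not tested at P1.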

How the data were processed

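Cells were sorted from cochleas of Lfng-EGFP mice at P1 and P6, in duplicate for each fraction, and sequenced with an unstranded kit (TruSeq RNA v2). The deposited values are raw counts of reads per Ensembl gene. For these counts the authors aligned reads to mm9 with TopHat (1.4.0 per the labels' processing notes) and the notes also name HTSeq and DESeq 1.9.2. Ambiguous and not uniquely aligned reads stand in rows of their own, apart from the genes. These and the other rows that name no gene held 23.8% to 29.5% of the listed counts in the P6 libraries and were left out.

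Gene names and positions came from GENCODE vM1 on NCBIM37, which is mm9, and 34391 of 36536 genes were found there. Counts of the 4 P6 libraries were filtered with filterByExpr (minimum count 10, minimum total 15), scaled by TMM and tested with edgeR 4.0.16 quasi-likelihood F-tests in R 4.3.3, with Benjamini-Hochberg adjustment. The age comparison was the age by fraction term over the 8 libraries. The comparison of library pairs used CPM with a prior count of 0.5. The common dispersion was 0.0477, and the chi-square per degree of freedom between replicates was 43.8 for GFP+ and 30.2 for GFP-, so no library was a copy of another. On simulated data with 200 genes changed 8-fold, 100% were called in the P6 comparison (18098 genes tested, 2 false calls) and 98.5% in the age comparison (18817 genes, 11 false calls). The simulation gave every gene and library the common dispersion and changed only genes that were not rare. These rates therefore do not carry over to genes or libraries with a wider spread. Alternatives were DESeq2 1.42.0 (its size factors, its test), library totals, no filter, all 8 libraries, a replicate block, a test against 4-fold (glmTreat) and leaving out each library.

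The members of the lists and the rule for named genes were chosen with earlier results of these data known. Named were the 12 genes in each direction with the largest log2 fold change among enriched genes with a mean normalized count of 100 or more in the higher fraction, replicates that do not overlap and a gene symbol, outside the study's tables of top genes and of gene ontology terms at P6 (its P1 tables were not used for this), the 6 such genes in each direction with the highest level per kilobase, up to 5 highest genes of each list with its enriched members of the opposite direction, 6 genes in each direction of the age comparison, and Lfng. Some genes are not reported here. Other list members are quoted as list members, chosen after their values were seen. Of the listed genes, Otogl, Ncmap and Ahsp were not matched by name, and Sult1e1, Matn3, Cnn1, Epb4.2, mt-Nd4l, Vgf and Dio3 did not pass the filter. Promoter windows were RefSeq's on GRCm38.p6, matched by symbol, and Heyl, Hey1, Inpp5j and Sp7 had no window.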

Additional observations from a re-analysis of the deposited data

Results flagged for a closer look

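The genes below had a ratio of GFP+ to GFP- cells that differed between P6 and P1 by the test of that difference (edgeR, age by fraction term, adjusted p below 0.05), as the log2 ratio at P6 minus that at P1. It was higher at P6 by 7.21 for Rasal1, 6.20 for Vtn, 6.12 for Psapl1, 6.07 for Slc47a2, 5.91 for Ighm and 5.88 for Trim29. It was lower at P6 for Olfml3 (-4.35), Pthlh (-3.59), Bmp2 (-3.53), Rbpjl (-3.53), Fam159b (-3.37) and Itih3 (-3.21). Slc47a2 and Trim29 were no longer past the threshold with the replicate block and without P1 GFP+ replicate 1, P1 GFP+ replicate 2, P1 GFP- replicate 2, P6 GFP- replicate 1 or P6 GFP- replicate 2. Fam159b was no longer past it without P1 GFP+ replicate 1, P1 GFP+ replicate 2 or P6 GFP- replicate 1.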

How the results depend on the processing

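Of the 146 named log2 ratios, 140 kept direction and call under DESeq2's size factors. Without P6 GFP- replicate 2 all of them kept their direction, but no call of the main fit was left, so that fit cannot show which calls hold. Scaling moved the median log2 ratio of all genes by at most 0.02. Genes enriched in GFP- cells, 567 in edgeR, numbered 295 by library totals, 1211 by DESeq2, 1473 without the filter, 1294 with all 8 libraries and 1 against a 4-fold threshold, which left 190 in GFP+ cells. Leaving out 1 library gave 0 to 1105 GFP+ genes and 0 to 2156 GFP- genes, and 1075 to 4419 and 865 to 5387 at an adjusted p below 0.05. For the age difference, higher and lower at P6, DESeq2 gave 1463 and 826, no filter 2128 and 1073, and leaving out 1 library 157 to 1848 and 169 to 1726. The cause was not tested.

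The replicate numbers share only a label (correlation of replicate differences between the fractions 0.08, with 2 pairs). With a replicate block, the enriched genes were 955 on the GFP- side and 891 on the GFP+ side, and the age difference had 316 and 283 genes. Some named ratios changed sign. With the block these were Scg2 (-0.10), Mbp (-0.0640) and Cdh5 (-0.0775). Leaving out GFP+ replicate 1 or GFP+ replicate 2 gave opposite signs, from the lowest to the highest value, for Myo6 (-0.36 to 0.0228), Syt1 (-0.26 to 0.0272), Scg2 (-0.83 to 0.68), Pmp22 (-1.18 to 0.28), Mbp (-0.63 to 0.54), Kcne1 (-2.34 to 2.06), Kcnq1 (-0.0825 to 1.66), Slc26a4 (-0.64 to 0.87), Kdr (-1.72 to 0.27), Cdh5 (-1.17 to 1.01) and Jun (-0.20 to 0.0423). Mbp was -0.00796 without the filter and -0.0700 without GFP- replicate 1.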

Other observations

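Genes of peptide processing and secretory granules were found in both fractions. Of 12 tested, 2 were enriched in GFP+ cells and 1, Gcg, in the other fraction. The 2 were Scg5 and Crhr1, and Crhr1 codes for a receptor rather than a processing or granule protein. It is also among the study's top genes at P6. Crhr1, a receptor of corticotropin releasing hormone, had 11243, 10302, 43.6 and 25.5 normalized counts in GFP+ replicates 1 and 2 and GFP- replicates 1 and 2 (log2 fold change 8.29 ± 0.34 SE, adjusted p = 0.000645). Scg5, the chaperone of the convertase PC2, was enriched in GFP+ cells (2.07), and Pcsk2, which codes for PC2 itself, had 3877, 3263, 1339 and 1102 (1.55 ± 0.18, adjusted p = 0.00377), short of 4-fold. Pam and Cpe, which amidate and trim peptides, were lower in GFP+ cells at an adjusted p below 0.05 (4420.3, 6052, 17505 and 14701, and 4137, 4709, 14021 and 11178).

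Genes of nuclear receptors and maturation signals were likewise divided. Of 17, Rora and Rorb, which code for retinoid-related orphan receptors, were enriched in GFP+ cells (Rora 21836, 25517, 3749.7 and 3679.8 normalized counts, 2.67 ± 0.20, and Rorb 4.97). In GFP- cells 0 were enriched in edgeR and 2 in DESeq2, with 7 lower in GFP+ cells at an unadjusted p below 0.05, and edgeR enriched 1 and 4 there without GFP+ replicate 1 or 2. Hr, a corepressor of thyroid hormone receptors, was higher in GFP+ cells without reaching 4-fold (9142, 8705, 2594 and 2587, 1.78 ± 0.16, adjusted p = 0.00172). Dio2, the deiodinase that activates thyroid hormone, had 1444, 4558, 22596 and 24871 (-2.98 ± 0.55, adjusted p = 0.0122), and the glucocorticoid receptor gene Nr3c1 had 1893, 3151, 8211 and 7683 (-1.65 ± 0.27, adjusted p = 0.00900).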
